A study of Mus musculus with 8 samples.

Results

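The genes that set how much phosphate the kidney returns to the blood, and how much active vitamin D it makes and destroys, were followed in kidneys of aged and adult mice. They are 10 mouse genes chosen by symbol, namely Kl, Slc34a1, Slc34a3, Slc20a2, Slc9a3r1, Pth1r, Fgfr1, Cyp24a1, Cyp27b1 and Vdr. All 10 had a row among the 30153 of the deposited table, and 9 of them reached the mean of 1 TPM asked of a gene before testing. Pth1r did not. TPM is a gene's share of all transcripts in a library after allowing for transcript length, so levels of different genes can be compared on it. The study measured RNA in whole kidney by sequencing of polyadenylated RNA, in 8 libraries. The 4 aged and the 4 adult libraries came from C57/BL6 mice labelled haplotype II (Hap-II), all on a western diet. Per the series title these mice are hypertensive and overexpress the human type 1 receptor for angiotensin. No group lacked the transgene or ate another diet, so the comparison the labels give is one of age within that setting. The labels used here give neither an age in weeks nor the promoter of the transgene, and do not say that each library is another animal. The p-values therefore measure the spread between these libraries.

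Phosphate is filtered at the glomerulus and recovered in the proximal tubule, mainly by the sodium-phosphate cotransporters NaPi-IIa (Slc34a1) and NaPi-IIc (Slc34a3). Fibroblast growth factor FGF23 from bone and parathyroid hormone both remove these transporters from the brush border. FGF23 needs klotho (Kl) beside a fibroblast growth factor receptor such as Fgfr1, and parathyroid hormone acts through Pth1r. The same tubule activates vitamin D with Cyp27b1 and degrades it with Cyp24a1, and the active hormone, calcitriol, binds the receptor Vdr, which switches Cyp24a1 on. Klotho is known for its loss in ageing and kidney disease, and mice without it age early and hold too much phosphate.

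Some properties of the libraries bear on all values. The 8 columns totalled between 924798 and 950974 TPM, and TPM keep no read depth, so no counting error can be given. The share of the TPM scale held by the 13 mitochondrially encoded protein genes was 26.8% to 46.9% in aged and 19.6% to 26.1% in adult libraries, and the TPM left for all other genes together falls as that share rises. Y-linked transcripts summed to between 34.7 and 50.6 TPM in replicates 3 and 4 of both groups, and to between 0.485 and 2.30 TPM in replicates 1 and 2, a split the labels do not name. It is balanced over age, and members are given on both sides of it below. Kidney markers were present in every library. The summed TPM of 10 proximal tubule markers was 2911 to 7425 in aged and 3447 to 8494 in adult libraries. Parathyroid markers Pth and Gcm2 were listed at 0 in every library. In whole tissue, fewer cells of a type and less RNA per cell cannot be told apart.

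None of the 9 members tested differed between aged and adult kidneys past the threshold. With limma on log2(TPM + 1), 0 of 9 had an adjusted p under 0.05, as did 0 of all 11796 genes tested (0%). An unadjusted p under 0.05 was found for 1 of the 9 members, Cyp24a1, against 400 of all genes (3.39%). By direction these were 325 lower in aged (2.76%), Cyp24a1 among them, and 75 higher (0.636%). No member had groups that did not overlap, against 2.46% of all genes. Of the 9, 7 had a negative log2 difference with a median of −0.16, beside a median of −0.11 for all genes, 65.0% of which were negative. Scaling turned some of these signs. With mitochondrial genes removed 6 of the 9 were positive, with a median of 0.11 beside 0.14 for all genes. With size factors 6 of the 9 were negative, and after quantile normalization 5. The largest differences were in the vitamin D enzymes and in Slc34a3, described below. Every interval but that of Cyp24a1, klotho and Slc34a1 included, reached from lower to higher in aged kidneys.

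**Figure D1:**
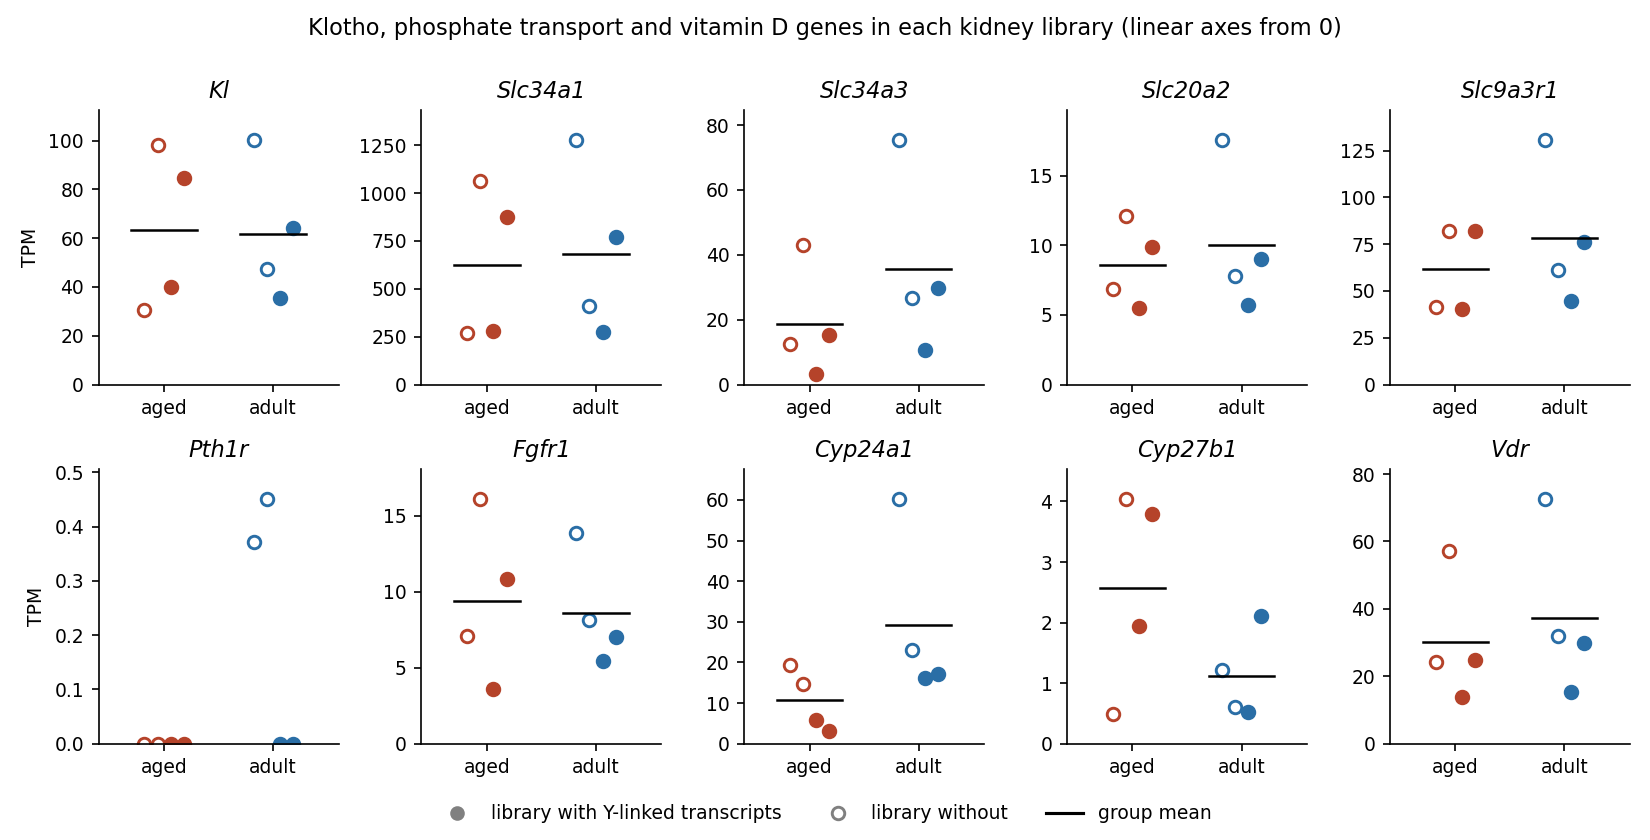
TPM of the 10 genes in each library, aged on the left and adult on the right of each panel, on linear axes that start at 0; filled points are libraries with Y-linked transcripts, open points libraries without, and lines are group means (none for Pth1r). The aged and adult points overlap in every panel with a value above 0 in both groups. For Cyp24a1, aged replicates 2, 3 and 4 lie lowest, and aged replicate 1 lies inside the adult range. Its aged values are 3.09 to 19.3 TPM, against 16.3 to 60.3 TPM in adult libraries.

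The members spanned a wide range of levels. Slc34a1 was by far the most abundant, with a mean of 653 ± 398 TPM over all libraries (SD, n = 8). Its lowest library, at 270.0 TPM, lay above the highest value of any other member, 131 TPM. Slc9a3r1 (69.8 ± 30.3 TPM) and Kl (62.6 ± 28.5 TPM) followed, and Slc9a3r1 was higher than Kl in 6 of 8 libraries. Vdr (33.7 ± 20.7 TPM), Slc34a3 (27.1 ± 23.3 TPM) and Cyp24a1 (19.97 ± 17.6 TPM) came next. These 3 did not separate beyond their spread, since Vdr exceeded Slc34a3 in 7 libraries and Slc34a3 exceeded Cyp24a1 in 5 of 8. Slc20a2 (9.31 ± 4.00 TPM) and Fgfr1 (9.02 ± 4.27 TPM) could not be ordered either, as each was the higher in 4 libraries. Cyp27b1 was low, at 1.84 ± 1.42 TPM, and below Fgfr1 in all 8 libraries.

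Klotho RNA was at nearly the same mean level in both groups. Kl (ENSMUSG00000058488, chr5:150952607-150993817, forward strand, GRCm38) had 30.8, 98.3, 39.9 and 84.5 TPM in aged kidneys, against 100.4, 47.2, 35.6 and 64.3 TPM in adult kidneys. Each group held high and low libraries, so the ranges nearly coincide. The means were 63.4 ± 33.1 TPM in aged and 61.9 ± 28.2 TPM in adult kidneys (SD, n = 4 each). The difference of log2(TPM + 1) was −0.02 (SE 0.42, 95% interval −0.94 to 0.90, limma adjusted p = 1.00, exact two-sided permutation p = 0.971). Its sign was positive with size factors (0.081), after quantile normalization (0.21) and once mitochondrial genes were left out (0.26). The interval is too wide to say that klotho is unaltered with age, since it holds nearly a log2 unit in either direction.

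Fgfr1, the receptor that klotho turns into a receptor for FGF23, likewise had overlapping groups. Fgfr1 (ENSMUSG00000031565, chr8:25513654-25575718, forward strand) had 7.09, 16.1, 3.61 and 10.8 TPM in aged kidneys, against 13.9, 8.16, 5.47 and 7.03 TPM in adult kidneys. Aged kidneys held both its highest and its lowest library. The log2 difference was 0.02 (SE 0.41, 95% interval −0.88 to 0.92, limma adjusted p = 1.00). The ratio of Kl to Fgfr1 within a library, which does not depend on the TPM scale, was 4.34, 6.10, 11.1 and 7.80 in aged and 7.25, 5.78, 6.505 and 9.14 in adult kidneys. The adult ratios lay inside the aged range.

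Pth1r, the parathyroid hormone receptor, was listed at 0 in all 4 aged libraries. In adult kidneys it was listed at 0.372 and 0.451 TPM in replicates 1 and 2, and at 0 in replicates 3 and 4. Pth1r (ENSMUSG00000032492, chr9:110722085-110747145, reverse strand) has 6 annotated transcripts. The proximal tubule is known to express this gene well, and the sodium-hydrogen exchanger Slc9a3, another gene of its brush border, was also listed at 0 in all but 1 library (0.0425 TPM in adult replicate 4). A 0 in a table of estimated TPM can be a failed estimate, since genes that every cell uses can stand at or near 0 in it too. The ribosomal protein gene Rps12, for one, was listed at 0 in aged replicates 2 and 4, and at no more than 3.84 TPM elsewhere. No fold is given for Pth1r.

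**Figure D2:**
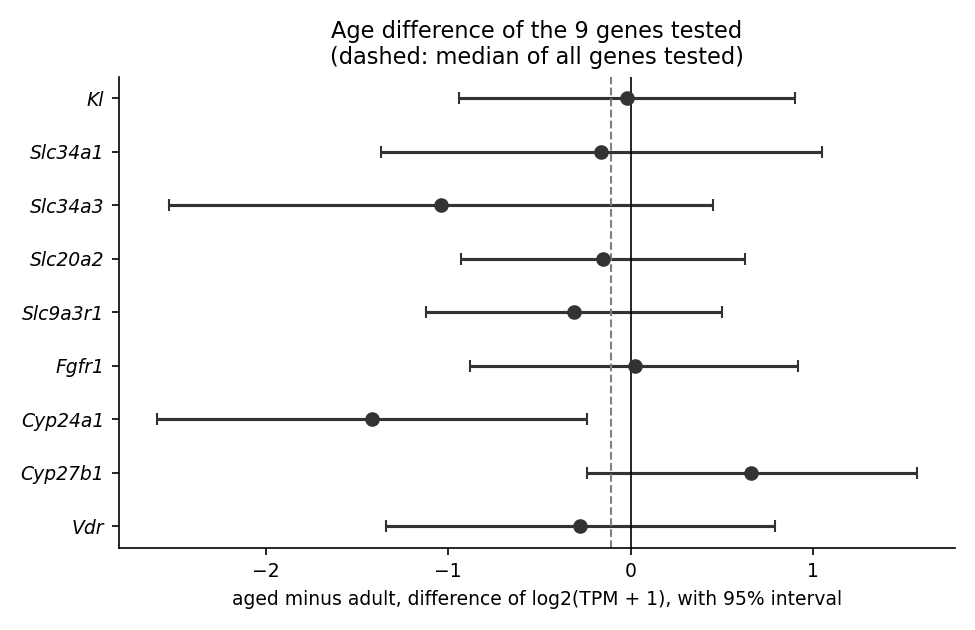
Aged minus adult difference of log2(TPM + 1) for the 9 genes tested, with 95% intervals; the solid line is 0 and the dashed line the median of all genes tested, −0.11. Every interval but that of Cyp24a1, −2.60 to −0.24, includes 0.

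Among the phosphate transporters, the main one had similar means in both groups and the minor one a lower mean in aged kidneys. Slc34a1 (NaPi-IIa, ENSMUSG00000021490, chr13:55398187-55415592, forward strand) had 270.0, 1065, 281 and 873 TPM in aged kidneys, against 1279, 411, 274 and 770 TPM in adult kidneys. Within a group the highest library was 3.94 times the lowest in aged and 4.67 times in adult kidneys, so the spread within an age was far larger than the difference of the means. The log2 difference was −0.16 (SE 0.55, 95% interval −1.37 to 1.05, limma adjusted p = 1.00), and it was positive after quantile normalization (0.12) and once mitochondrial genes were left out (0.13). Slc34a3 (NaPi-IIc, ENSMUSG00000006469, chr2:25228898-25234364, reverse strand) had 12.6, 43.2, 3.22 and 15.4 TPM in aged kidneys, against 75.5, 26.7, 10.5 and 29.6 TPM in adult kidneys. Aged replicate 3 was the lowest and adult replicate 1 the highest of all 8. Its log2 difference was −1.04 (SE 0.68, 95% interval −2.53 to 0.45, limma adjusted p = 1.00, exact permutation p = 0.314). The Slc34a3 difference rested on few libraries, being −0.45 when aged replicate 3 was left out. Leaving out adult replicate 1 gave −0.58, and leaving out aged replicate 2 gave −1.58.

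The balance between the NaPi-II transporters can be read within each library. The ratio of Slc34a1 to Slc34a3 was 21.4, 24.7, 87.3 and 56.6 in aged kidneys, against 16.9, 15.4, 26.0 and 26.0 in adult kidneys. The groups overlapped, because aged replicates 1 and 2 lay below adult replicates 3 and 4. Within the libraries that had Y-linked transcripts (replicates 3 and 4), and within those that had none (replicates 1 and 2), both aged ratios were above both adult ones. This ratio was not tested.

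Slc20a2 and Slc9a3r1 had small differences relative to their spread. Slc20a2 (PiT-2, ENSMUSG00000037656, chr8:22476788-22569612, forward strand), a phosphate transporter of another family, had 6.84, 12.1, 5.51 and 9.86 TPM in aged kidneys, against 17.6, 7.83, 5.75 and 9.03 TPM in adult kidneys. Apart from adult replicate 1 the groups covered much the same range. Its log2 difference was −0.15 (SE 0.36, 95% interval −0.93 to 0.63, limma adjusted p = 1.00), and 0.13 without adult replicate 1. Slc9a3r1 (NHERF1, ENSMUSG00000020733, chr11:115163341-115181181, forward strand), the scaffold that holds NaPi-IIa in the brush border, had 41.3, 82.3, 40.5 and 81.8 TPM in aged kidneys, against 130.8, 61.0, 44.6 and 76.0 TPM in adult kidneys. Again adult replicate 1 stood highest. The log2 difference of Slc9a3r1 was −0.31 (SE 0.37, 95% interval −1.12 to 0.50, limma adjusted p = 1.00), and −0.03 without that library.

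Cyp24a1, the enzyme that degrades calcitriol, had the largest age difference of the 10 genes, although it did not pass the test over all genes. Cyp24a1 (ENSMUSG00000038567, chr2:170482708-170497145, reverse strand) had 19.3, 14.8, 5.91 and 3.09 TPM in aged kidneys, against 60.3, 23.1, 16.3 and 17.1 TPM in adult kidneys. Only aged replicate 1 lay inside the adult range. The means were 10.8 ± 7.54 TPM in aged and 29.2 ± 20.9 TPM in adult kidneys (SD, n = 4 each), and the log2 difference was −1.42 (SE 0.54, 95% interval −2.60 to −0.24). The unadjusted p was 0.0225 and the limma adjusted p 1.00, and the gene stood 156th of 11796 by p. By exact two-sided permutation p was 0.114, where 0.0286 is the smallest that 4 against 4 libraries can give. The negative sign held under all 22 alternatives tried, with Cyp24a1 between −1.77 and −1.001, and no alternative gave an adjusted p under 0.05. Those that altered only the filter, the variance estimate or the covariates left the difference as it was and could not turn its sign. Among replicates 3 and 4, which had Y-linked transcripts, the log2 difference of Cyp24a1 was −1.73 (limma adjusted p = 0.0684, 2 libraries a group), and among replicates 1 and 2 it was −1.10 (adjusted p = 0.999). Both aged libraries were below both adult ones in each of these subsets.

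Cyp27b1, the enzyme that makes calcitriol, was the member with the largest positive difference, also short of the threshold. Cyp27b1 (ENSMUSG00000006724, chr10:127048250-127053006, forward strand) had 0.486, 4.04, 1.94 and 3.79 TPM in aged kidneys, against 1.21, 0.603, 0.529 and 2.11 TPM in adult kidneys. Aged replicates 2 and 4 stood above every adult library, and aged replicate 1 below every one. The log2 difference was 0.66 (SE 0.41, 95% interval −0.24 to 1.57, limma adjusted p = 1.00, exact permutation p = 0.257). It was 1.03 without aged replicate 1 and 0.44 without aged replicate 2. These levels are close to the 1 TPM added before taking logarithms, so the log2 difference of Cyp27b1 understates its fold change.

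Set against each other within a library, degradation and synthesis enzymes showed a lower ratio in 3 of the 4 aged kidneys. Cyp24a1 RNA was 39.6, 3.65, 3.04 and 0.817 times that of Cyp27b1 in aged kidneys, against 49.6, 38.3, 30.8 and 8.11 times in adult kidneys. The medians were 3.35 in aged and 34.5 in adult kidneys. Aged replicate 1 lay among the adult values and the other 3 aged libraries below all of them. The divisor Cyp27b1 was under 1 TPM in aged replicate 1 (0.486) and in adult replicates 2 (0.603) and 3 (0.529). The counting error of such low values is unknown, and the ratios there were 39.6, 38.3 and 30.8. A ratio within a library does not move with the TPM scale or with the mitochondrial share. The ratio was not tested, and its members were chosen with results of these data known.

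**Figure D3:**
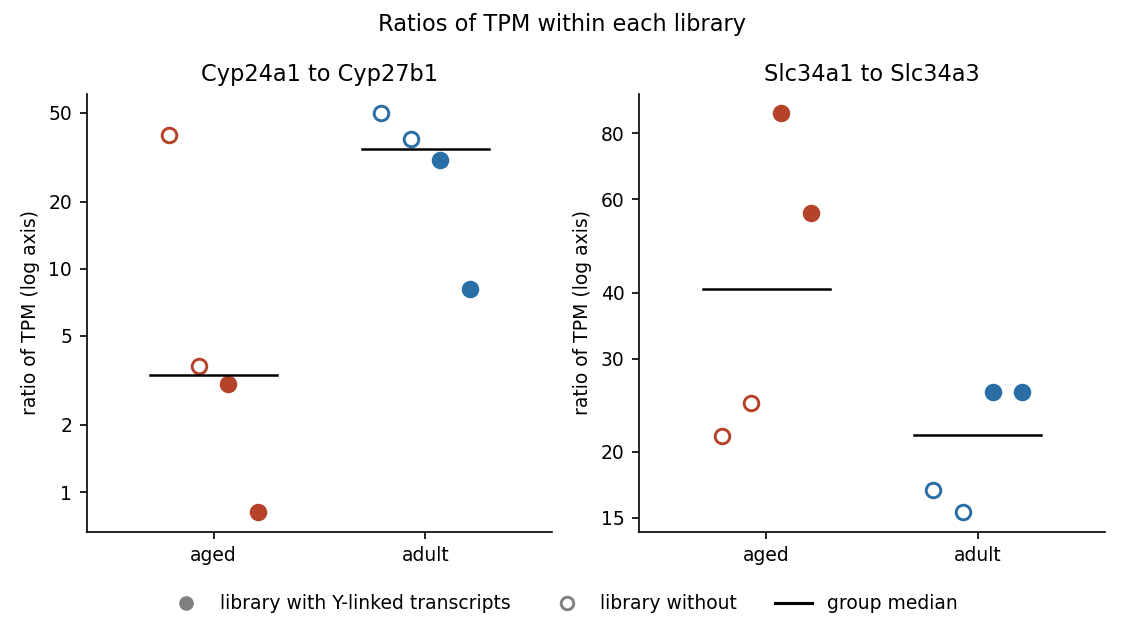
Ratio of TPM within each library on log axes, for Cyp24a1 to Cyp27b1 and for Slc34a1 to Slc34a3, aged on the left and adult on the right; filled points are libraries with Y-linked transcripts, open points libraries without, and lines are medians. The median ratio of Cyp24a1 to Cyp27b1 is 3.35 in aged and 34.5 in adult libraries, with 1 aged library at 39.6, and that of Slc34a1 to Slc34a3 is 40.6 in aged and 21.5 in adult libraries. The divisor Cyp27b1 is under 1 TPM in aged replicate 1 and in adult replicates 2 and 3.

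Vdr, the calcitriol receptor, had overlapping groups. Vdr (ENSMUSG00000022479, chr15:97854425-97910630, reverse strand) had 24.2, 57.2, 13.8 and 24.9 TPM in aged kidneys, against 72.7, 31.9, 15.3 and 29.8 TPM in adult kidneys. Replicate 3 was the lowest library of each group. Its log2 difference was −0.28 (SE 0.48, 95% interval −1.34 to 0.79, limma adjusted p = 1.00), and 0.11 without adult replicate 1.

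Much of the variation in these genes ran between libraries of the same age. Adult replicate 1 and aged replicate 2 were high, and aged replicate 3, adult replicate 3 and aged replicate 1 were low, for nearly all members. Of the 9 tested members, 8 had aged replicate 2 among their 3 highest libraries, 6 had aged replicate 4 there, and 8 had adult replicate 1 there. Conversely, 7 had aged replicate 1, 8 had aged replicate 3 and 8 had adult replicate 3 among their 3 lowest. Kl and Slc34a1 ranked all 8 libraries in the same order. Cyp24a1 was the exception among the abundant members, since its lowest library was aged replicate 4, which held rank 3 for Kl and Slc34a1.

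**Figure D4:**
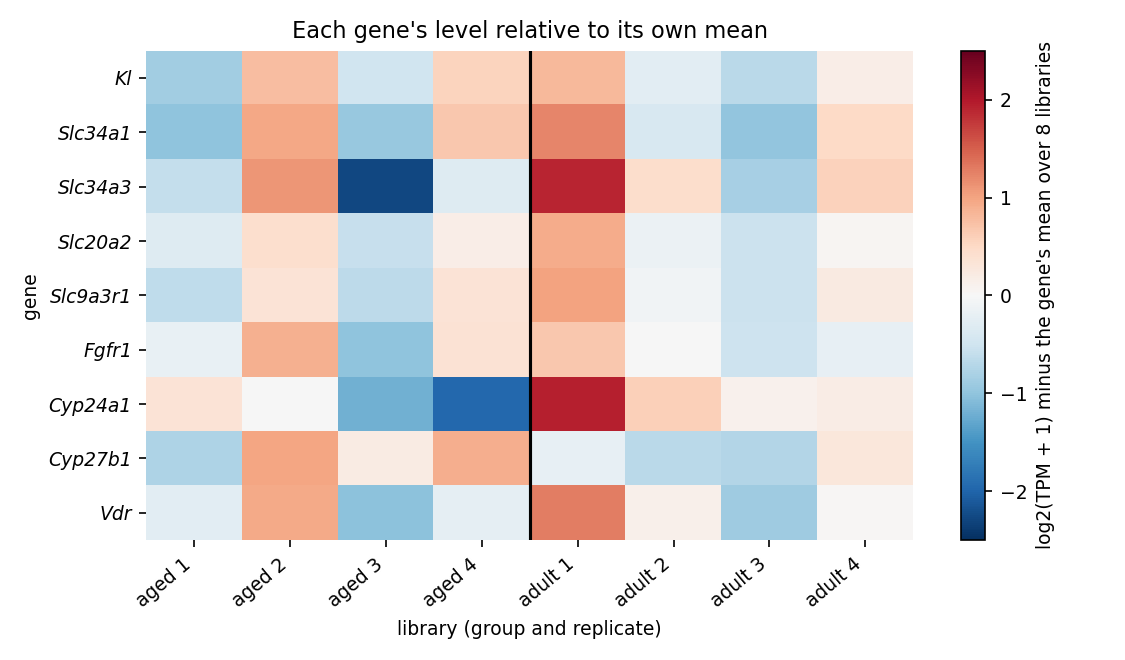
Level of the 9 tested genes in each library as log2(TPM + 1) minus the gene's own mean over the 8 libraries, with aged libraries left of the line and adult ones right of it; red is above and blue below the mean. Adult replicate 1 and aged replicate 2 are red, and aged replicate 3 and adult replicate 3 blue, for most genes, while Cyp24a1 is lowest in aged replicate 4.

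The proximal tubule markers moved with these transporters. Their summed level was 3060, 7425, 2911 and 5578 TPM in aged and 8494, 5031, 3447 and 5362 TPM in adult libraries, so the 3 libraries low for Slc34a1 and Kl were also the 3 lowest for the markers. Per 1000 TPM of those markers, Kl was 10.05, 13.2, 13.7 and 15.1 in aged and 11.8, 9.38, 10.3 and 12.0 in adult libraries. This range was much narrower than that of its TPM. Aged replicates 2, 3 and 4 lay above every adult library for Kl on this scale, which was not tested. The divisor itself averaged 4744 ± 2166 TPM in aged and 5584 ± 2113 TPM in adult libraries (SD). How much of the Kl RNA came from the proximal tubule was not tested. Slc34a1 per 1000 TPM of markers was 88.2, 143, 96.4 and 157 in aged and 151, 81.7, 79.4 and 144 in adult libraries. Cyp24a1 per 1000 TPM of markers was 6.29, 1.99, 2.03 and 0.555 in aged and 7.10, 4.59, 4.72 and 3.19 in adult libraries, so 3 of the 4 aged values stayed below all adult ones. None of the 10 markers was at 0 in every library, and 3 of them had the higher mean in aged kidneys. What part the tubule content of each sample had in these values was not tested.

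The genes whose log2(TPM + 1) followed klotho most closely over the 8 libraries, of 11795 compared, were Anpep (Pearson r = 0.994), a brush border peptidase, Mfsd1 (r = 0.993), a lysosomal membrane protein, and Clcn5 (r = 0.987), a chloride-proton exchanger of proximal tubule endosomes. For Slc34a1 they included Abca3 (r = 0.999), a lipid transporter, and Clcn5 (r = 0.993). For Cyp24a1 they were Adat2 (r = 0.995), a tRNA deaminase, Cd3eap (r = 0.972), an RNA polymerase I subunit, and Apoa4 (r = 0.971), an apolipoprotein. These are the highest of many correlations over 8 libraries that share the TPM scale, and carry no p. Klotho itself had r = 0.983 with Slc34a1, 0.933 with Slc9a3r1 and 0.102 with Cyp24a1.

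The DNA just upstream of 3 members is shown because Kl and Slc34a1 ranked the libraries alike while Cyp27b1 had the age difference of opposite sign to Cyp24a1. RefSeq promoter windows on GRCm38.p6, of 250 bases before to 50 after a gene's start, were found for 7 of the 10 members, and not for Slc20a2, Fgfr1 and Cyp24a1. Only the 250 bases before the start are printed, all 3 on the forward strand and 5′ to 3′. Kl lies at chr5:150952357-150952606, Slc34a1 at chr13:55399398-55399647 and Cyp27b1 at chr10:127047996-127048245. Capitals mark any of 8 six-letter words of the kind the vitamin D receptor binds (either AGGTCA or else AGGTGA or else AGTTCA or else GGTTCA or else GGGTCA or else GGGTGA or else AGGGCG or else GGTGCG), on either strand.
Kl: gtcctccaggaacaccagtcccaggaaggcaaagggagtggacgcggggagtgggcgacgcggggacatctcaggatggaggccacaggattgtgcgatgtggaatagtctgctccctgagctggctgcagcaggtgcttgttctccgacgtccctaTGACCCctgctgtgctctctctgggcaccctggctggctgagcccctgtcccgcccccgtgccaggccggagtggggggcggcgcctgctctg
Slc34a1: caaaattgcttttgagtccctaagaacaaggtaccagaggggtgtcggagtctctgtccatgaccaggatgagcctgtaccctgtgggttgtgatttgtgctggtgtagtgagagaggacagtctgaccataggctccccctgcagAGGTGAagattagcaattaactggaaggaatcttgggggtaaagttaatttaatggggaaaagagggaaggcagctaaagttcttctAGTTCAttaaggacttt
Cyp27b1: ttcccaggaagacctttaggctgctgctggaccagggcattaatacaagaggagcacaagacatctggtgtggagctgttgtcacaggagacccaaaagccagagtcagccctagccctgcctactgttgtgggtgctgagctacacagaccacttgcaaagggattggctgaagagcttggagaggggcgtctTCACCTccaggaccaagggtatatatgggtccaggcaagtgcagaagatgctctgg

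The 3 stretches differ in composition. GC content was 66.8% for Kl, with 13 CpG dinucleotides, against 46.4% for Slc34a1 and 54.4% for Cyp27b1, with 1 CpG each. Kl held 1 word (TGACCC, starting 93 bases before the start), Slc34a1 held 2 (AGGTGA at 104 and AGTTCA at 17 bases), and Cyp27b1 held 1 (TCACCT at 56 bases). The words in Kl and Cyp27b1 are read on the reverse strand. Such single words occurred in 72.1% of all 32851 windows. No window of a member held 2 of the words in the same orientation with a spacing of 3 bases, the arrangement that the receptor prefers, and 0.35% of all windows did. A word is a match of letters and not a known site. The printed Slc34a1 stretch lies within the gene's span in GENCODE M21, which starts further upstream, at 55398187.

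The other genes of the pathway did not pass the test for age either. Of 43 genes listed by role, 34 reached the mean of 1 TPM, and 0 of 34 passed the limma adjusted threshold (0% of all genes), with 0 at an unadjusted p under 0.05 (3.39% of all genes). Their log2 differences were positive for 13 and negative for 21, with a median of −0.07. Scaling turned these signs. With mitochondrial genes removed 28 of 35 were positive, with a median of 0.19 beside 0.14 for all genes.

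Of the hormones, Pth was listed at 0 in every library and Fgf23 at no more than 0.0614 TPM, as is known for genes made in the parathyroid gland and in bone. The bone gene Dmp1 was also listed at 0 throughout. Other receptors that can pair with klotho were present in both groups, with Fgfr3 at 5.83 ± 3.20 TPM in aged and 6.41 ± 1.58 TPM in adult kidneys and Fgfr4 at 5.77 ± 2.52 and 6.35 ± 3.48 TPM in aged and adult kidneys (SD, n = 4 each). The 6 smallest unadjusted p-values of the list, none under 0.05, belonged to Sgk1, Fam20c, Egr1, S100g, Slc20a1 and Stc1. Sgk1, a kinase of tubular sodium transport, averaged 61.6 ± 34.7 TPM in aged and 35.1 ± 14.7 TPM in adult kidneys (log2 difference 0.70, SE 0.44). Fam20c, the kinase that phosphorylates FGF23, averaged 11.4 ± 6.52 TPM in aged and 18.5 ± 9.60 TPM in adult kidneys (−0.67, SE 0.43).

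Egr1, an early gene induced by FGF23 signalling among many other stimuli, had 1.83, 8.63, 62.6 and 37.1 TPM in aged kidneys, against 17.5, 3.19, 5.33 and 2.77 TPM in adult kidneys. Its high values were in aged replicates 3 and 4, the pair lowest for Cyp24a1. Its log2 difference was 1.29 (SE 0.85, limma adjusted p = 1.00). In the 4 libraries with Y-linked transcripts alone the Egr1 difference was 3.33 (limma adjusted p = 0.000137, only 2 libraries a group). In that subset 0.536% of all genes were called, and Egr1 was the single call on this list under any alternative. In the 4 without, the Egr1 difference was −0.75 (limma adjusted p = 0.999, again 2 libraries a group). The interaction of age and split for Egr1 was 4.08 (SE 1.06, unadjusted p = 0.00378, limma adjusted p = 1.00). Slc20a1 (PiT-1), the relative of Slc20a2, had 4.71, 10.5, 12.7 and 13.0 TPM in aged kidneys, against 8.29, 6.67, 3.87 and 8.89 TPM in adult kidneys (log2 difference 0.47, SE 0.35). Stc1, a hormone that promotes phosphate uptake, averaged 2.09 ± 0.91 TPM in aged and 1.401 ± 0.80 TPM in adult kidneys (SD, n = 4 each).

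The uptake and activation steps before Cyp27b1 had similar means. The endocytic receptors Lrp2 (megalin) and Cubn (cubilin), which take up vitamin D with its carrier, averaged 47.9 ± 27.8 and 14.0 ± 10.8 TPM in aged kidneys, against 46.4 ± 34.0 and 14.3 ± 11.4 TPM in adult kidneys (SD, n = 4 each). Cyp2r1, the main enzyme of the first activation step in liver, was at 1.29 ± 0.59 TPM in aged and 1.41 ± 0.42 TPM in adult kidneys, and Cyp27a1, a mitochondrial sterol hydroxylase, at 20.1 ± 5.63 and 18.5 ± 6.36 TPM in aged and adult kidneys. Of the calcitriol target genes of the distal tubule, S100g and Calb1 had lower means in aged kidneys without passing the test, and Trpv5 had similar means. The distal tubule marker sum, which includes Calb1, was also lower on average, at 1314 ± 1371 TPM in aged and 1593 ± 1023 TPM in adult kidneys (SD, n = 4 each), and its part in these values was not tested. S100g (calbindin-D9k) had 1060, 1416, 447 and 350.4 TPM in aged and 1443, 2286, 902 and 536 TPM in adult kidneys (log2 difference −0.69, SE 0.51). Calb1 (calbindin-D28k) averaged 43.7 ± 37.7 TPM in aged and 55.7 ± 32.1 TPM in adult kidneys, and the calcium channel Trpv5 2.26 ± 2.23 and 2.32 ± 1.56 TPM in aged and adult kidneys. Both Calb1 and Trpv5 were highest in aged replicate 2, at 99.6 and 5.47 TPM.

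**Figure D5:**
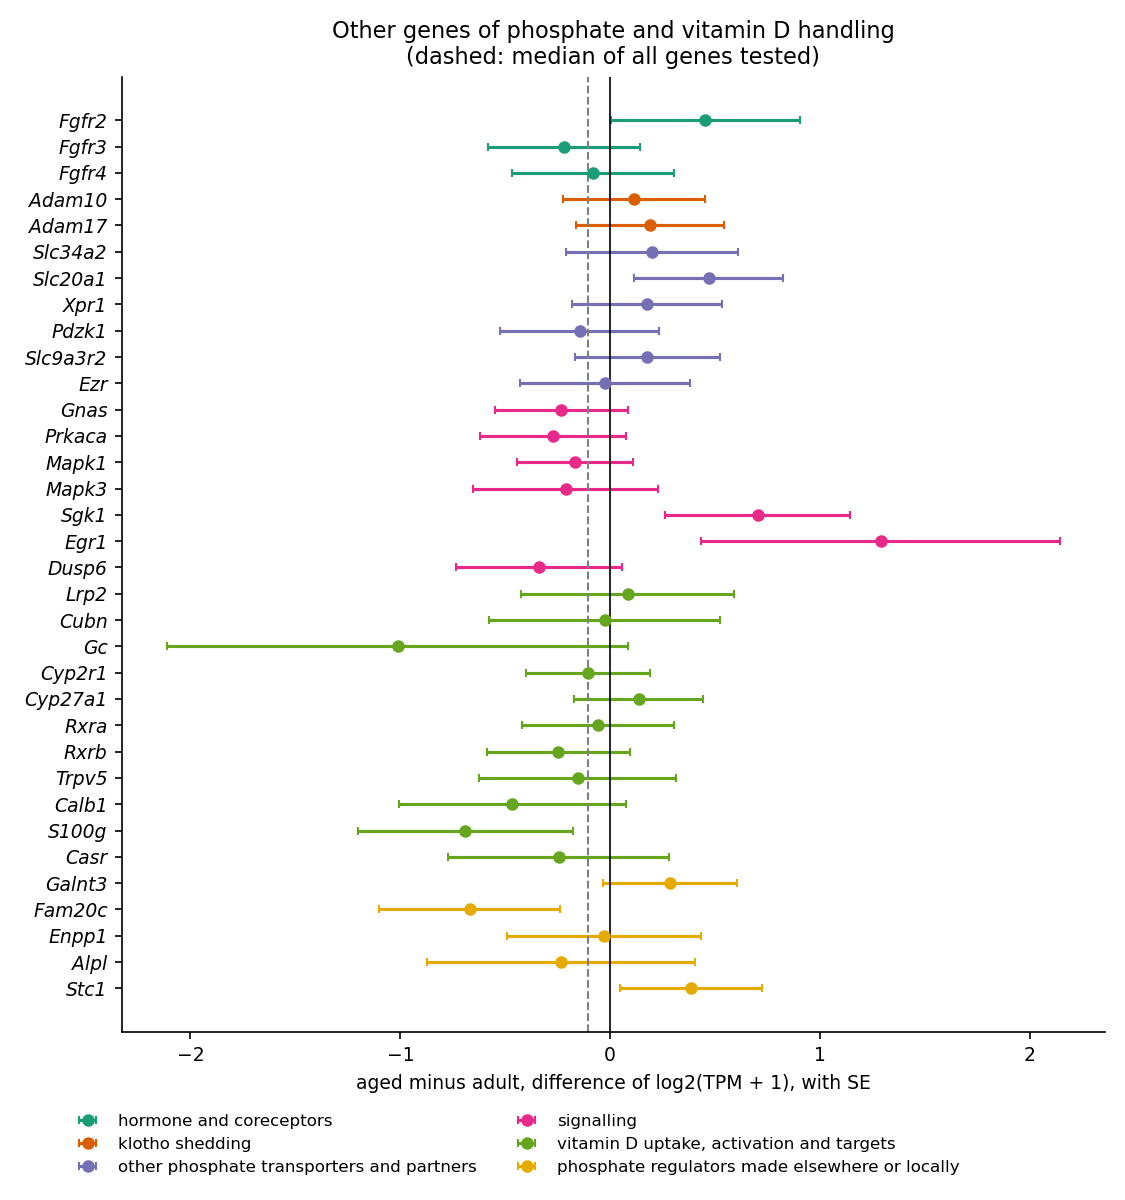
Aged minus adult difference of log2(TPM + 1) with its SE for the 34 other pathway genes tested, coloured by role; the solid line is 0 and the dashed line the median of all genes tested, −0.11. No gene passed the test, and Egr1, at 1.29, has the largest positive difference and Gc, at −1.01 with an SE of 1.10, the largest negative one.

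On TPM without further scaling, the split by Y-linked transcripts was larger than that by age for some of these genes, Vdr and Slc34a3 among them. For Cyp24a1 it was of nearly the same size as that by age. On that scale the median of all genes was −0.11 by age and −0.46 along the split. With size factors the Cyp24a1 difference was −0.90 along the split and −1.32 by age. With age in the model, 1 of the 9 members, Cyp24a1, differed between the 4 libraries with and the 4 without Y-linked transcripts (limma adjusted p = 0.0239), where 12.4% of all genes did. Cyp24a1 averaged 10.6 ± 7.14 TPM with and 29.3 ± 20.9 TPM without (SD, n = 4 each), a log2 difference of −1.43 (SE 0.32). In the same model its age difference was −1.42 (SE 0.32, limma adjusted p = 0.375). The split is balanced over age, so adding it can alter only the SE and p of the age difference. The age difference was −1.32 with size factors and −1.28 after quantile normalization, without the split in the model. Along the split, Cyp24a1 was not called under 3 other scalings. The adjusted p was 0.192 with size factors (difference −0.90), 0.180 after quantile normalization (−0.99) and 0.0587 once mitochondrial genes were left out (−1.31). The median of all genes was −0.46 in this comparison, and 89.2% of genes had a negative difference. Under size factors that median was 0.01, 48.5% were negative, and 5.43% of genes and 0 of 9 members were called. Cyp24a1 was not called either without aged replicate 2 (0.0677), aged replicate 3 (0.0631), adult replicate 1 (0.0660) or adult replicate 3 (0.0607). Vdr averaged 20.9 ± 7.67 TPM with and 46.5 ± 22.4 TPM without, and Slc34a3 14.7 ± 11.1 TPM with and 39.5 ± 27.0 TPM without, neither past the threshold (adjusted p = 0.0787 and 0.0975).

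Among the other pathway genes 5 of 34 (14.7%) differed along this split, all lower with Y-linked transcripts. That share is near the 11.3% of all genes called in that direction. The 5 genes were Gc, S100g, Mapk3, Casr and Calb1. Gc, the vitamin D carrier protein, had 2.77, 6.44, 16.6 and 18.9 TPM in the 4 libraries with Y-linked transcripts, against 65.2, 153, 158 and 84.0 TPM in the 4 without. These did not overlap (Gc log2 difference −3.44, SE 0.42, limma adjusted p = 0.00146), and Gc was also called with size factors (adjusted p = 0.00379). The other 4 were not called with size factors, at an adjusted p of 0.180 for S100g, 0.0727 for the kinase Mapk3, 0.0709 for the calcium-sensing receptor Casr and 0.161 for Calb1. Along the split 89.2% of all genes had a negative log2 difference, and markers of every nephron segment listed were mostly lower too. The mean was lower with Y-linked transcripts in 8 of 10 proximal tubule markers. It was lower in 4 of 4 for each of principal cells, intercalated cells and podocytes. The summed level of 6 distal convoluted and connecting tubule markers, Calb1 among them, was 298 to 750.0 TPM with and 1140 to 3300 TPM without Y-linked transcripts, and all 6 had the lower mean with them. The sum of 4 thick ascending limb markers was 461 to 744 TPM with and 1127 to 1966 TPM without, with the lower mean in 3 of 4. None of these markers was at 0 in every library, and their part in the differences was not tested. The interaction of age and split was called for 0 of 9 members (limma adjusted p), against 0.0339% of all genes, and 0 of 9 had an unadjusted p under 0.05, against 2.08% of all genes. Its SE was between 0.65 and 1.17 log2 units, so these libraries cannot show that the age differences are alike on both sides.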

How the data were processed

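Kidney RNA of mice (4 aged and 4 adult libraries) was sequenced in 8 libraries after polyadenylated RNA pull-down and stranded library preparation, per the labels' protocols. The deposited values are TPM for 30153 mouse gene identifiers. Kallisto, DESeq2 and GRCm38 are named in the submitters' processing notes, which do not assign the TPM to a step or an annotation.

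Identifiers were matched to symbols by a reference table (98.6%), and coordinates are from GENCODE M21 on GRCm38. Groups were compared on log2(TPM + 1) by limma's trend method (limma 3.58.1, R 4.3.3) for the 11796 genes with a mean of at least 1 TPM, with Benjamini-Hochberg adjustment over all of them (threshold 0.05). No count model was fitted to TPM. Single members were also tested by exact permutation over 70 assignments. The limma step was tested on simulated data with noise drawn independently for each gene and library. Variation that libraries share across genes was not simulated. The Y-linked split was set at 10 TPM summed over Ddx3y, Kdm5d, Eif2s3y and Uty. The members, the lists, the tests and this split were chosen with earlier results of these data known, and the settings of the split comparison were chosen after seeing the data. Named were all members, the 6 pathway genes with the smallest p, those called or at 0, fixed direct partners of the members, and the 3 genes most like Kl, Slc34a1 and Cyp24a1, of which 1 is not reported here. Rps12 and Slc9a3 were named after their values were seen. Alternatives were pseudocounts of 0.1 and 5, testing without a filter or from a mean of 5 TPM, other scalings, other limma settings, the replicate number as a block, the Y-linked split as a covariate or by side, and each library left out.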

Additional observations from a re-analysis of the deposited data

Results flagged for a closer look

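In a group of 4 libraries, a value was looked at again when its gap to the nearest other exceeded what Dixon's test allows, which chance gives in about 1 of 20 groups. This held for 2 of 37 groups of member values and ratios. Cyp24a1 in adult replicate 1, at 60.3 TPM, stood far above the other adult libraries. The ratio of Cyp24a1 to Cyp27b1 in aged replicate 1, at 39.6, stood far above the other aged libraries.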

How the results depend on the processing

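The number of members called between aged and adult kidneys was 0 under all 22 alternatives. Cyp24a1, Slc34a3 and Slc9a3r1 kept a negative sign in all 22, and Cyp27b1 a positive one in the 21 that tested it (0.29 to 1.03). Alternatives that altered only the filter, the variance estimate or the covariates could not turn a sign. The number of all genes called was 0, but 1 with array weights, 3 among replicates 1 and 2 and 60 among replicates 3 and 4 (those that hold Y-linked transcripts), where 1 pathway gene, Egr1, was called, and 0 to 2 with 1 library left out. Signs turned for small differences. With size factors Kl was 0.081, with quantile normalization Kl was 0.21 and Slc34a1 0.12, and with mitochondrial genes removed Kl was 0.26, Slc34a1 0.13, Slc20a2 0.11 and Vdr 0.00200. In the libraries with Y-linked transcripts Kl was 0.27, Slc34a1 0.11 and Slc20a2 0.032. With 1 library left out, Kl ran from −0.28 to 0.27, Slc34a1 from −0.52 to 0.22, Slc20a2 from −0.36 to 0.13, Fgfr1 from −0.27 to 0.36 and Vdr from −0.64 to 0.11. The median of all genes was −0.02 under size factors, 0.01 after quantile normalization and 0.14 once mitochondrial genes were left out. The cause of these changes was not tested.

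Along the Y-linked split the number of members called was 1 of 9 (12.4% of all genes), and 0 with no filter (3.74% of all genes), size factors (5.43%), quantile normalization (5.39%) or mitochondrial genes removed (5.66%). It was 4 with array weights (36.4% of all genes), and 0 to 2 with 1 library left out (3.36% to 17.3%). Same-numbered libraries share their number and, in both groups, their side of the Y-linked split, and the labels give no other tie. The correlation of their deviations from the group means was 0.04 for number 1, and 0.18, 0.49 and 0.42 for numbers 2, 3 and 4, and not every library correlated best with its own number. With the replicate block 0 members and 0 of all genes were called. Cyp24a1 had a log2 difference of −1.42, which a balanced block cannot alter (limma adjusted p = 0.552). TPM keep no depth, so the counting error of low genes such as Cyp27b1 and Pth1r is unknown.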
